A study of Mus musculus with 12 samples.

Results

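Adipsin and 8 further complement genes were followed through epididymal white adipose tissue (eWAT) of mice on 4 diets. The genes were chosen by name, as the rows of the deposited table of FPKM (fragment counts per transcript length and sequencing depth) whose mouse Ensembl identifiers map to Cfd, C3, Cfb, C2, C1qa, C1qb, C1qc, C3ar1 and C5ar1. All 9 were found among the 23474 genes of the table, and all 9 passed the filter on low values in every comparison. The mice were male C57BL/6J, were put on their diets at 5 weeks of age and were 17 weeks old after 12 weeks of feeding. The normal diet group (ND) and the high-fat diet group (HFD) received no extract. The GT group received the HFD with 0.25% (w/w) of an ethanol extract of green tea, and the TJ group received the HFD with 3% (w/w) of Taeeumjowuitang (TJ), a Korean herbal medicine made of water extracts of plants. Each group held 10 mice, and 3 libraries per group were sequenced. The methods describe 3 randomly selected mice each for the HFD and TJ groups, whereas the labels of the ND and GT libraries say nothing on how their mice were picked.

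Complement is a cascade of plasma proteins that tags particles and cells for uptake and releases small peptides that attract and activate leukocytes. Its classical pathway starts when C1q binds a target, its alternative pathway amplifies itself through factor B and factor D, and all pathways meet at the cleavage of C3. Adipose tissue is an unusual source of these proteins, because adipocytes secrete factor D under the name adipsin and also make C3 and factor B. Macrophages, which accumulate in the adipose tissue of obese mice, make C1q and carry the receptors of the peptides C3a and C5a.

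The libraries held roughly 10.0M to 19.7M fragments, estimated from the steps between low FPKM values, and no library other than ND replicate 1 was under 14.4M. ND replicate 1 stood apart from all others. Its FPKM values summed to 1002765 against 527904 to 725245 in the other libraries, its 5 testis germ cell markers summed to 72117 FPKM against 131 and 2043 in the other ND libraries, and its level of the adipocyte marker Adipoq was 202 FPKM against 1826 and 2781. It also had 3157 FPKM of summed epididymis markers. Fold changes against the ND group are therefore given with and without ND replicate 1. The same kinds of markers also stood in ND replicate 3, with the 2043 FPKM of germ cell markers given above, in HFD replicate 1, with 1514 FPKM of them, and in HFD replicate 2, with 1278 FPKM of epididymis markers. Most of the latter was Crisp1, at 1172 FPKM against 110 FPKM in ND replicate 1. The tissue label held in the other libraries, where all 8 adipocyte markers were present and their sum was 17203 to 59206 FPKM. These were Adipoq, Plin1, Cidec, Lipe, Fabp4, Pnpla2, Slc2a4 and Lep, and Fabp4 made up most of the sum. The sum was 17203 to 19608 FPKM in the HFD group, 24029 to 27593 in GT and 29265 to 59206 in TJ. Without overlap, 7 of the 8 were higher in TJ than in HFD and 1, Lep, was lower. Most macrophage markers moved with the groups. The 8 in the list were Adgre1, Csf1r, Cd68, Cd14, Mrc1, Lyz2, Cd163 and Trem2. Lyz2, at 1914 to 2757 FPKM, made up most of their sum in the HFD group. In ND replicates 2 and 3, 7 of the 8 were lower than in every HFD library. Cd163 went the other way, at 17.6 and 18.6 FPKM there and 9.30 to 15.9 FPKM in the HFD group. The sum of 8 such markers was 66.2 FPKM in ND replicate 1, 443 and 567 FPKM in ND replicates 3 and 2, 2998 to 4225 FPKM in the HFD group, 1234 to 2793 FPKM in the GT group and 735 to 2228 FPKM in the TJ group. Within the TJ group, replicate 2 had both the lowest macrophage sum, 735 FPKM, and the highest adipocyte sum, 59206 FPKM. In bulk tissue, fewer cells of a type and less RNA per cell cannot be told apart, which holds for every level given here.

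Groups were compared with limma on log2(FPKM + 1), and a differentially expressed gene (DEG) had an adjusted p under 0.05 (Benjamini-Hochberg, over all genes tested) and a change of at least 1.5-fold. Fold changes are on this scale, which understates those of low genes. For a single gene, the exact permutation test of 3 libraries against 3 cannot give a p-value under 0.1. The TJ and GT comparisons share the 3 HFD libraries, so their values stand side by side and do not bear on each other independently.

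Cfd (ENSMUSG00000061780, GRCm38 chr10:79890853-79892655, plus strand) encodes adipsin, the serine protease that cleaves factor B in the alternative pathway. By FPKM, a level per transcript length, it was the highest of the 9 genes in every ND, GT and TJ library, whereas C3 and C1qb stood above it in every HFD library. Cfd stood at 3048, 4074 and 3626 FPKM in the ND group and at 337, 349 and 251 FPKM in the HFD group. In the GT group the values were 799.7, 1204 and 1668 FPKM, and in the TJ group they were 2091, 9296 and 1668 FPKM. The HFD libraries were thus the lowest of the 12, the GT libraries lay between the HFD and ND groups without touching either, and the TJ libraries spanned the ND range. The group means were 3583 ± 514 FPKM for ND, 313 ± 53.5 for HFD, 1224 ± 435 for GT and 4352 ± 4287 for TJ (SD, n = 3).

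Cfd was a DEG in all 3 comparisons with the HFD group. Against the ND group, the HFD group had a log2 fold change of -3.52 in Cfd (standard error 0.38, limma adjusted p = 0.0208), and without ND replicate 1 it was -3.63 (standard error 0.19, limma adjusted p = 0.000904). With the replicate number as a block the call was lost (limma adjusted p = 0.12). Only 0.0416% of the 14430 tested genes were called lower in that comparison. The log2 fold change of Cfd in the TJ group against the HFD group was 3.36 (standard error 0.61, limma adjusted p = 0.0248), and without TJ replicate 2 it was 2.59. In the GT group against the HFD group it was 1.92 (standard error 0.27, limma adjusted p = 0.0338). The TJ and GT groups did not overlap in Cfd, but 1 TJ library and 1 GT library lay at 1668.4 and 1668.3 FPKM, and limma did not call the difference (log2 fold change 1.44, 95% interval -0.01 to 2.90, adjusted p = 0.205). Without TJ replicate 2 that difference was 0.67. Cfd has a longest transcript of 922 nt. The 858 tested genes with a longest transcript of 800 to 1300 nt, a range chosen after the data had been seen, had a median of 0.35 for TJ against HFD on the log2 scale. The median over all tested genes was -0.14. For TJ against GT the medians of this range and of all genes were 0.47 and -0.03, and for GT against HFD -0.10 and -0.12. For HFD against ND they were -0.63 and 0.07, and -0.04 and -0.02 without ND replicate 1. The part of transcript length in the changes of Cfd was not tested.

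Cfd was higher in both extract groups than in the HFD group also relative to adipocyte markers. The mean log2(FPKM + 1) of 8 adipocyte markers was used, which includes Lep. Unlike the other 7, Lep was lower in the TJ group (292 to 825 FPKM) than in the HFD group (899 to 1196 FPKM), and its part was not tested. That mean was subtracted from log2(FPKM + 1) of Cfd in each library. This difference was -1.06, -0.98 and -1.40 in the HFD group, -0.17, 0.13 and 0.29 in the GT group and 0.99, 2.81 and 0.67 in the TJ group. The ND group had 4.83, 1.86 and 1.98, the first value from ND replicate 1, and the HFD minus ND difference was -4.03, or -3.06 without that library. Neither extract group overlapped with the HFD group, with a gain of 2.63 for TJ and 1.23 for GT on the log2 scale (exact permutation p = 0.1 for each, the smallest possible). The gain for TJ was 1.97 without TJ replicate 2. In the same comparisons, 80.5% and 80.8% of all tested genes did not overlap once the adipocyte markers were subtracted, so the lack of overlap as such is common. In the TJ group against the GT group the difference was 1.41 higher (exact permutation p = 0.1), and 0.74 higher without TJ replicate 2, where 13% of all tested genes did not overlap. The ratio of Cfd to Adipoq, which encodes the adipocyte hormone adiponectin, was 0.314 ± 0.0325 in the HFD group, 0.704 ± 0.0748 in the GT group and 1.37 ± 0.974 in the TJ group (SD, n = 3). In single libraries it was 0.868, 2.49 and 0.741 in the TJ group, of which the lowest lay within the GT range of 0.636 to 0.784, and 15.1, 1.47 and 1.99 in the ND group, the first value from ND replicate 1. This ratio was looked at after the data had been seen and is given without a test.

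**Figure D1:**
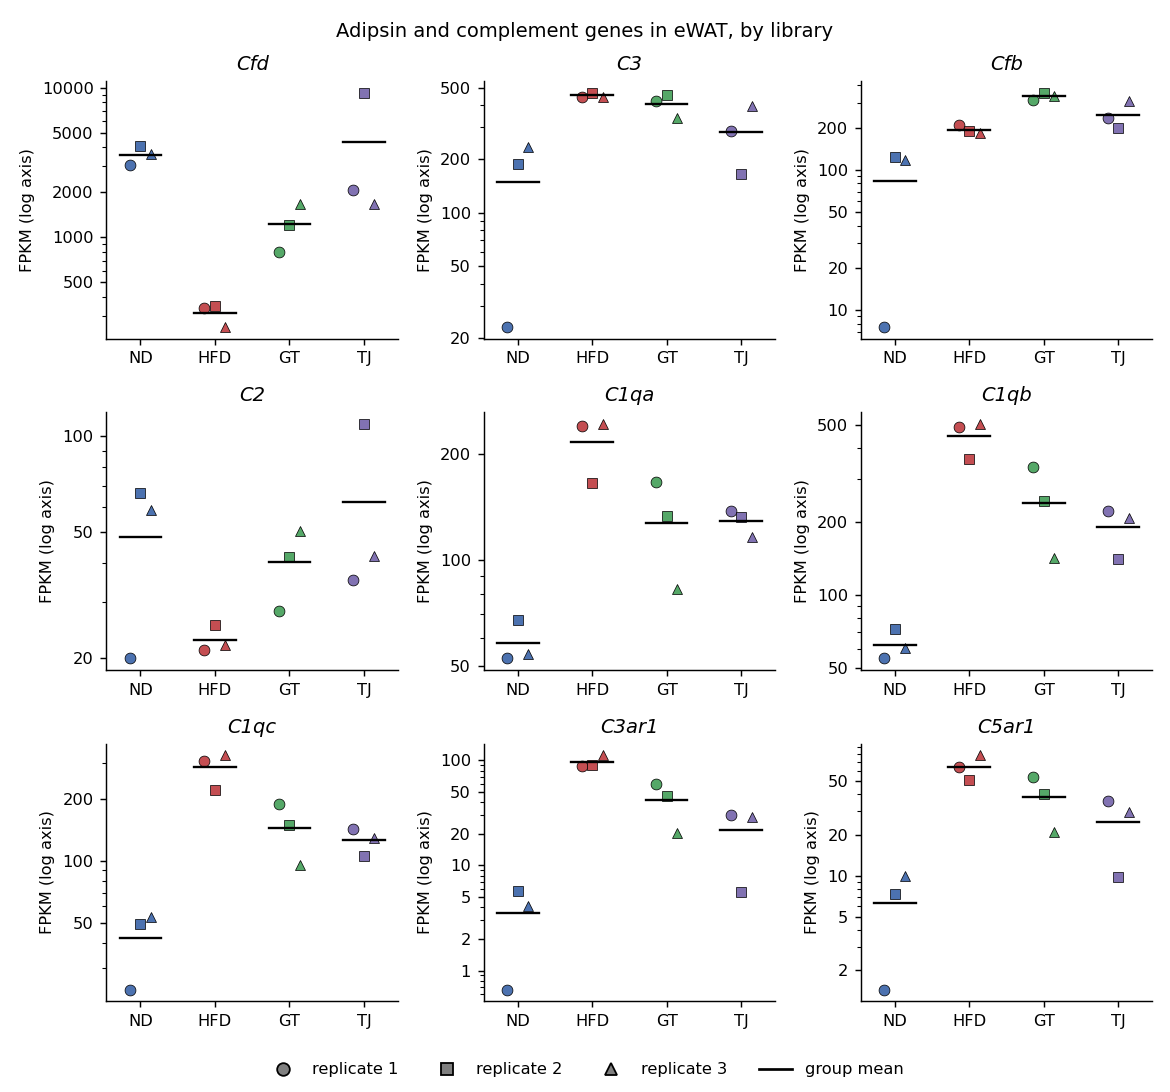
FPKM of each of the 9 genes in the 12 eWAT libraries on a logarithmic axis, by diet group, with 1 symbol per replicate number and a line at the group mean. Cfd is lowest in the 3 HFD libraries (251 to 349 FPKM), whereas C1qb, C1qc and C3ar1 are highest there, and ND replicate 1 (circle) is the lowest library for every gene but Cfd.

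C3 (ENSMUSG00000024164, chr17:57203970-57228136, minus strand) encodes the protein on which all complement pathways converge. It stood at 22.9, 187 and 234 FPKM in the ND group, 445, 467 and 442 in the HFD group, 421, 454 and 339 in the GT group and 287, 164 and 394 in the TJ group. The ND libraries were all below the HFD libraries, and so were the TJ libraries, while the GT libraries overlapped with the HFD group. No comparison of all libraries called C3 in limma. The log2 fold change of the HFD group against the ND group was 2.15 (standard error 0.90, adjusted p = 0.439), and without ND replicate 1 it was 1.11 (standard error 0.14, adjusted p = 0.00745), which was called. It was -0.77 (standard error 0.30, limma adjusted p = 0.104) in the TJ group and -0.17 (limma adjusted p = 0.41) in the GT group against the HFD group. The TJ value became -0.42 without TJ replicate 2, and -1.05 without TJ replicate 3, where C3 was called (limma adjusted p = 0.035). The GT value lay close to the median of all tested genes in that comparison, -0.12. Relative to the 8 adipocyte markers, C3 differed from the HFD group by -1.49 in the TJ group and by -0.86 in the GT group on the log2 scale, without overlap (exact permutation p = 0.1 for each), against the 80.5% and 80.8% of all genes without overlap given above.

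Cfb (ENSMUSG00000090231, chr17:34856374-34862518, minus strand) encodes factor B, which supplies the protease of the alternative pathway. Its FPKM values were 7.57, 122.5 and 118 in the ND group, 209, 190.1 and 182 in the HFD group, 315, 354 and 337 in the GT group and 235, 199 and 307 in the TJ group. Cfb was thus the only 1 of the 9 genes whose mean was highest in the GT group, and all GT libraries were above all others. The log2 fold change was 0.79 in the GT group against the HFD group (standard error 0.10, limma adjusted p = 0.0311). Relative to the 8 adipocyte markers that difference was 0.10 and the groups overlapped (exact permutation p = 0.6). The log2 fold change of Cfb in the TJ group was 0.33 (standard error 0.19, 95% interval -0.11 to 0.77, limma adjusted p = 0.211). Relative to the markers the TJ value was -0.40 with overlap (exact permutation p = 0.3), and -0.62 without overlap when TJ replicate 3 was left out. The log2 fold change of the TJ group against the GT group was -0.46 (95% interval -0.91 to -0.01, unadjusted p = 0.0446 and limma adjusted p = 0.194). Between the HFD and ND groups the log2 fold change was 1.95 (limma adjusted p = 0.494), and 0.68 without ND replicate 1 (limma adjusted p = 0.0175).

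C2 (ENSMUSG00000024371, chr17:34862604-34898265, minus strand), the neighbour of Cfb, encodes the protease of the classical and lectin pathways. It stood at 20.0, 66.5 and 58.6 FPKM in the ND group, 21.2, 25.5 and 22.0 in the HFD group, 28.2, 41.7 and 50.5 in the GT group and 35.4, 109 and 42.1 in the TJ group. All GT and TJ libraries exceeded all HFD libraries, and so did ND replicates 2 and 3. None of these differences was called with the settings used throughout. The log2 fold changes were 1.23 in the TJ group (standard error 0.40, limma adjusted p = 0.0641) and 0.75 in the GT group (standard error 0.21, limma adjusted p = 0.0774) against the HFD group. Without TJ replicate 2 the TJ value was 0.73 and was called (limma adjusted p = 0.016), as it was with quantile normalization (1.26, limma adjusted p = 0.0394). Relative to the 8 adipocyte markers, C2 in the TJ and GT groups differed from the HFD group by 0.50 and 0.060 on the log2 scale, and both overlapped with it (exact permutation p = 0.3 and 0.6). The TJ value was 0.12 without TJ replicate 2, and 0.75 without overlap when TJ replicate 1 was left out. Between the HFD and ND groups the log2 fold change was -0.88 (limma adjusted p = 0.494), and -1.41 without ND replicate 1 (limma adjusted p = 0.00368). C2 and Cfb overlap on the same strand with Gm20547 (chr17:34856412-34882042), whose fragments could be shared with theirs. Gm20547 was listed at no more than 0.243 FPKM in every ND, HFD and GT library and at 7.13, 11.2 and 3.82 FPKM in the TJ group. It was a DEG in the TJ group against the HFD group (log2 fold change 2.91, limma adjusted p = 0.0196). Gm20547 averaged 0.038 FPKM in the HFD libraries and 7.38 FPKM in the TJ libraries. The filter on low values was thus passed only through the TJ libraries, where Gm20547 was high. Its call is therefore given as a description. C2 also overlaps on the opposite strand with Zbtb12, which stood at 1.19 to 2.29 FPKM in all libraries.

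Within a library, C3, Cfb and C2 did not keep a fixed proportion. These ratios were chosen after the data had been seen and are given without tests. The ratio of Cfb to C3 in FPKM was 0.469, 0.407 and 0.412 in the HFD group, 0.749, 0.780 and 0.995 in the GT group and 0.819, 1.21 and 0.779 in the TJ group. Both extract groups lay above the HFD group without overlap, where 25.9% of all tested genes did not overlap relative to C3 between the GT and HFD groups and 53.1% between the TJ and HFD groups. The ND group had 0.331, 0.655 and 0.507. The ratio of C2 to Cfb was 2.64 in ND replicate 1, 0.543 and 0.495 in ND replicates 2 and 3, 0.102 to 0.134 in the HFD group and 0.0896 to 0.150 in the GT group. It was 0.151, 0.549 and 0.137 in the TJ group, where only replicate 2 reached the level of ND replicates 2 and 3.

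**Figure D2:**
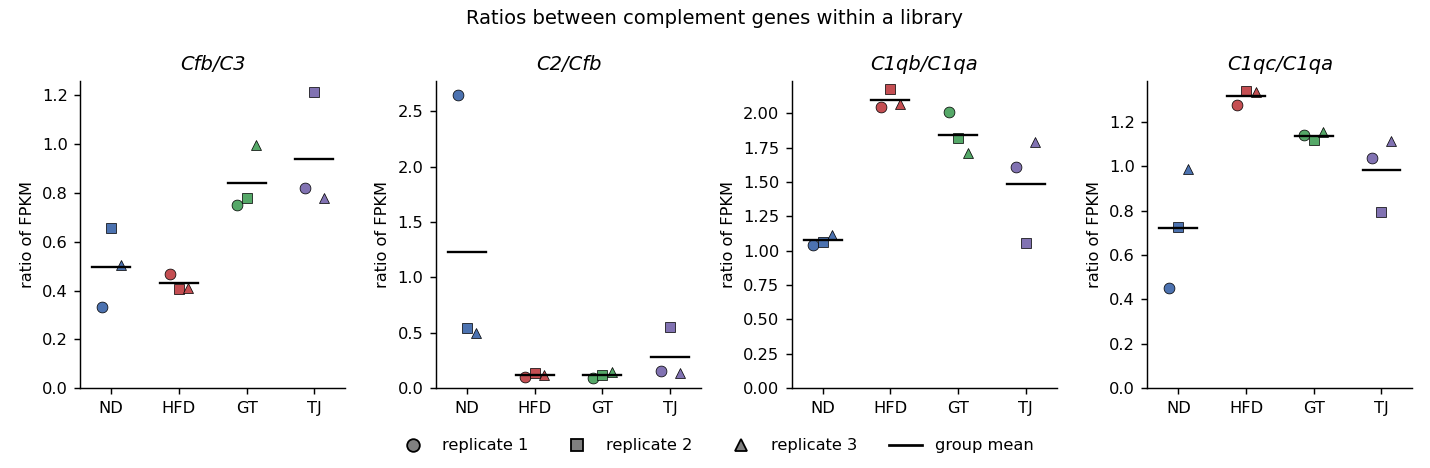
Ratios of FPKM within each library for Cfb to C3, C2 to Cfb, C1qb to C1qa and C1qc to C1qa, by diet group, with a symbol per replicate number and a line at the group mean. The ratio of C1qb to C1qa is 2.04 to 2.18 in the HFD group and 1.04 to 1.12 in the ND group, and the ratio of Cfb to C3 is higher in the GT and TJ groups than in the HFD group.

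The 3 chains of C1q, the recognition protein of the classical pathway, are encoded side by side on the minus strand of chromosome 4, within 18675 bases (chr4:136880129-136898803). C1qa (ENSMUSG00000036887, chr4:136895917-136898803) stood at 52.5, 67.7 and 53.9 FPKM in the ND group and at 240.3, 165 and 244 in the HFD group. In the GT group it stood at 166, 133 and 82.6 FPKM, and in the TJ group at 138, 133 and 116. C1qb (ENSMUSG00000036905, chr4:136880129-136886187) stood at 54.7, 72.1 and 60.1 FPKM in the ND group and at 491, 360.1 and 504 in the HFD group. All 3 HFD libraries exceeded all 9 other libraries for C1qb. Its values were 334, 243 and 141 FPKM in the GT group and 222, 139.9 and 208 in the TJ group. C1qc (ENSMUSG00000036896, chr4:136889804-136893065) stood at 23.7, 49.2 and 53.3 FPKM in the ND group, 307, 222 and 326 in the HFD group, 189.9, 149 and 95.6 in the GT group and 143, 106 and 129.5 in the TJ group. For all 3 chains the ND libraries were the lowest, the TJ libraries lay between the ND and HFD groups, and the GT and TJ groups overlapped with each other. The GT group also lay below the HFD group, apart from C1qa, where 1 GT library reached the lowest HFD library.

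All 3 chains were DEGs between the HFD and ND groups. On the log2 scale the changes were 1.87 for C1qa (standard error 0.30, limma adjusted p = 0.0484), 2.83 for C1qb (standard error 0.30, limma adjusted p = 0.0208) and 2.80 for C1qc (standard error 0.41, limma adjusted p = 0.0392). Without ND replicate 1 they were 1.80, 2.74 and 2.44, all called. With the replicate number as a block none of the chains was called (limma adjusted p = 0.206 for C1qa, 0.118 for C1qb and 0.13 for C1qc). All 3 were also DEGs between the TJ and HFD groups, at -0.73 for C1qa (standard error 0.19, limma adjusted p = 0.0415), -1.26 for C1qb (standard error 0.23, limma adjusted p = 0.0248) and -1.16 for C1qc (standard error 0.20, limma adjusted p = 0.0247). Of the 3 chains, C1qa kept its calls least often, in 2 of 12 alternatives between the HFD and ND groups and in 3 of 12 between the TJ and HFD groups. In the latter comparison C1qa was not called with median-of-ratios scaling, where its log2 fold change was -0.59, nor with the replicate block (limma adjusted p = 0.0729). The GT group against the HFD group gave -0.80, -0.98 and -1.01, none of them called (limma adjusted p = 0.119, 0.101 and 0.0717). Between the TJ and GT groups limma called no chain, with 95% intervals from -0.52 to 0.66 for C1qa, -1.03 to 0.48 for C1qb and -0.76 to 0.45 for C1qc. The chains have longest transcripts of 1040 to 1203 nt. In the range of 800 to 1300 nt the median was 0.35 for TJ against HFD and -0.63 for HFD against ND (-0.04 without ND replicate 1). The part of transcript length in the changes of the chains was not tested.

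C1qa moved less than its neighbours. The ratio of C1qb to C1qa was 1.04, 1.07 and 1.12 in the ND group and 2.04, 2.18 and 2.06 in the HFD group. It was 2.01, 1.82 and 1.71 in the GT group and 1.61, 1.05 and 1.79 in the TJ group. The HFD group lay above each other group without overlap, and TJ replicate 2, with the fewest macrophage markers of its group, lay within the ND range. The ratio of C1qc to C1qa followed the same order, with 0.451, 0.727 and 0.990 in the ND group, 1.28 to 1.34 in the HFD group, 1.12 to 1.16 in the GT group and 1.04, 0.796 and 1.12 in the TJ group. These ratios were looked at after the data had been seen. Relative to C1qa, 69.6% of all tested genes did not overlap between the HFD and ND groups, 49.6% between the TJ and HFD groups and 37.2% between the GT and HFD groups.

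The starts of Cfd, C1qb and C1qc are shown because Cfd was lower and both chains were higher in the HFD group than in the ND group. The start of C3, which was not called with all libraries, is shown as that of another gene of adipocytes. Each window of 300 bases, taken from RefSeq on GRCm38.p6, runs 5′ to 3′ on the strand of the gene from 250 bases before its RefSeq start. For C1qb and C1qc that start differs from the one in the gene positions given above, and motif positions are relative to the RefSeq start. RefSeq windows were matched for 6 of the 9 genes. Capitals mark matches to GAGGAA, the core bound by the myeloid factor PU.1 and other ETS factors, to TTGCNNAA, a motif of the C/EBP factors of adipocytes and liver, and to TATAAA, the TATA box, each searched on both strands. The windows are Cfd at chr10:79890603-79890902, C3 at chr17:57228087-57228386, C1qb at chr4:136886151-136886450 and C1qc at chr4:136892865-136893164.
Cfd: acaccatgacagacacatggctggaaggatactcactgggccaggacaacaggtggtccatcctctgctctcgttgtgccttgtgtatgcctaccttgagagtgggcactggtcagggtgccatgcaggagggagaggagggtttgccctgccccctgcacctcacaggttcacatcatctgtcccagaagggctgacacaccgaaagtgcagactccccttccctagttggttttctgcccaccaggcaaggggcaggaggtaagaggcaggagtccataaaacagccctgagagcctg
C3: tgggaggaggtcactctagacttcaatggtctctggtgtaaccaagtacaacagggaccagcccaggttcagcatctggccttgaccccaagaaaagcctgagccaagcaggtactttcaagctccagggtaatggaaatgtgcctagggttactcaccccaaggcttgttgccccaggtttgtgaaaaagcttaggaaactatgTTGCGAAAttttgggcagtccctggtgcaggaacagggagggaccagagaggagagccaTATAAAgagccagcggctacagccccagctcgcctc
C1qb: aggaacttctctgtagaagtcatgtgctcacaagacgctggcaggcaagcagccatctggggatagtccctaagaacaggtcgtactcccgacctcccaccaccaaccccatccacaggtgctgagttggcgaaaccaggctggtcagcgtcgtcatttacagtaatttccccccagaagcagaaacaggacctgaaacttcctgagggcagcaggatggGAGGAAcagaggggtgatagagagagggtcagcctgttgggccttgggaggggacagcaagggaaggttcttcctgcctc
C1qc: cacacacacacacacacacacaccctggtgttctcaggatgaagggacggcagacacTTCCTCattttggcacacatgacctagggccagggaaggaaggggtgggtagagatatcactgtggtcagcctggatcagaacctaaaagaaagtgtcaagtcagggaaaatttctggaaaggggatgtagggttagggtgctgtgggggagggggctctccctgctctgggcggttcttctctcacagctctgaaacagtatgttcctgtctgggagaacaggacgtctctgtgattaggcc
The C3 window holds 1 C/EBP match 45 bases before the start (position -45) and 1 TATA box match that begins after the annotated start (position 14). The C1qb window holds 1 GAGGAA match (position -30) and the C1qc window holds 1 on the reverse strand (position -193, printed as TTCCTC), while the Cfd window holds none of the 3 motifs. The windows of C3ar1, which was also a DEG higher in the HFD group, and of C5ar1 are not printed. Neither holds a GAGGAA or TTGCNNAA match, and the C3ar1 window holds 1 TATAAA match (position -235). Of 32817 such windows, 28.3% hold GAGGAA, 10.8% TTGCNNAA and 13.6% TATAAA, so these matches are common and are given as a description.

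C3ar1 (ENSMUSG00000040552, chr6:122847138-122856161, minus strand) encodes the receptor of the peptide C3a on myeloid cells. It stood at 0.66, 5.71 and 4.11 FPKM in the ND group and at 87.6, 90.9 and 112 in the HFD group. The GT group had 59.2, 45.5 and 20.4 FPKM, and the TJ group had 30.4, 5.54 and 28.8. The HFD libraries were the highest of the 12, and TJ replicate 2 lay within the ND range. C3ar1 had the largest increase of the 9 genes from the ND to the HFD group, by 4.66 on the log2 scale (standard error 0.56, limma adjusted p = 0.0247) and by 4.05 without ND replicate 1 (limma adjusted p = 0.000765). With the replicate number as a block it was not called (limma adjusted p = 0.0738). It was downregulated in the TJ group against the HFD group, at -2.41 on the log2 scale (standard error 0.58, limma adjusted p = 0.0361). Leaving out TJ replicate 2 gave -1.67. In the GT group it was -1.31 (standard error 0.36, limma adjusted p = 0.0764), which was not called. Since 1 ND library lay below the pseudocount of 1 FPKM and the others only a few FPKM above it, the fold change of C3ar1 between HFD and ND is understated.

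C5ar1 (ENSMUSG00000049130, chr7:16246743-16259540, minus strand) encodes the main receptor of C5a, a strong attractant of neutrophils and macrophages. It stood at 1.44, 7.34 and 10.0 FPKM in the ND group, 63.8, 51.3 and 78.0 in the HFD group, 53.7, 40.4 and 21.01 in the GT group and 35.7, 9.76 and 29.9 in the TJ group. All ND and TJ libraries were below the HFD group, and the GT group overlapped with it. C5ar1 was not called in any comparison with the settings used throughout. The log2 fold changes were 3.41 for HFD against ND (standard error 0.61, limma adjusted p = 0.062), -1.49 for TJ against HFD (standard error 0.45, limma adjusted p = 0.0559) and -0.81 for GT against HFD (standard error 0.33, limma adjusted p = 0.162). Over the single libraries left out, the GT value ran from -1.10 to -0.44 and was never called. C5ar1 was called for HFD against ND without ND replicate 1 (2.75, limma adjusted p = 0.00224) and for TJ against HFD without TJ replicate 2 (-0.94, limma adjusted p = 0.022). It was also called with quantile normalization in both comparisons (limma adjusted p = 0.0494 for HFD against ND and 0.041 for TJ against HFD), with all 12 libraries in a single fit for HFD against ND (limma adjusted p = 0.00814) and with the replicate block for TJ against HFD (limma adjusted p = 0.0409).

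The receptors and C1q were also set against other macrophage genes. Neutrophil markers were not used for this, and their part was not tested. The sum of 5 of them was 0.407 to 10.9 FPKM in the ND group and 56.6 to 65.5 FPKM in the HFD group. In the GT and TJ groups that sum was 37.0 to 80.2 and 16.7 to 78.8 FPKM. The mean log2(FPKM + 1) of the 8 macrophage markers was subtracted from each gene within each library. This mean includes Cd163, which moved against the other 7 between the HFD group and ND replicates 2 and 3. C5ar1 lay at a similar distance from the markers in each group, with means of -1.26 ± 0.30 in the ND group (-1.31 ± 0.41 without ND replicate 1, n = 2), -1.30 ± 0.15 in HFD, -1.32 ± 0.14 in GT and -1.30 ± 0.15 in TJ (SD, n = 3). C3ar1 stood at -1.92 ± 0.21 in the ND group (-2.02 ± 0.15 without ND replicate 1, n = 2), -0.71 ± 0.15 in HFD, -1.23 ± 0.23 in GT and -1.63 ± 0.47 in TJ. The HFD group was above each of the others for C3ar1 without overlap (exact permutation p = 0.1 for each). C1qa was lower in the HFD group than in the ND group, at 3.31, 1.44 and 1.29 in ND replicates 1 to 3, 0.43 ± 0.17 in the HFD group, 0.43 ± 0.08 in GT and 1.19 ± 0.86 in TJ. TJ was higher than HFD for C1qa by 0.76 without overlap (exact permutation p = 0.1), and by 0.26 without TJ replicate 2. For C1qb and C1qc the TJ and GT groups overlapped with the HFD group. Between the TJ and GT groups, C1qa and C1qc were higher in the TJ group, by 0.76 and 0.54, without overlap (exact permutation p = 0.1 for each), where 13.5% of all tested genes did not overlap. Without TJ replicate 2 these differences were 0.27 and 0.19. Between HFD and ND, C1qb differed by -0.62 and C5ar1 by -0.048, both with overlap, and by 0.0016 and 0.0078 without ND replicate 1. C1qc was lower in the HFD group without overlap, by -0.66, and by -0.31 without ND replicate 1. For the 5 genes set against macrophage markers, 3 did not overlap between HFD and ND, against 96.8% of all tested genes (97.6% without ND replicate 1), 2 between TJ and HFD, against 82.4%, and 1 between GT and HFD, against 57%. For the 4 genes set against adipocyte markers, all 4 did not overlap between HFD and ND, against 9.29% of all tested genes (58.1% without ND replicate 1, again with all 4). A share at or under that of all genes is no result about these genes.

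**Figure D3:**
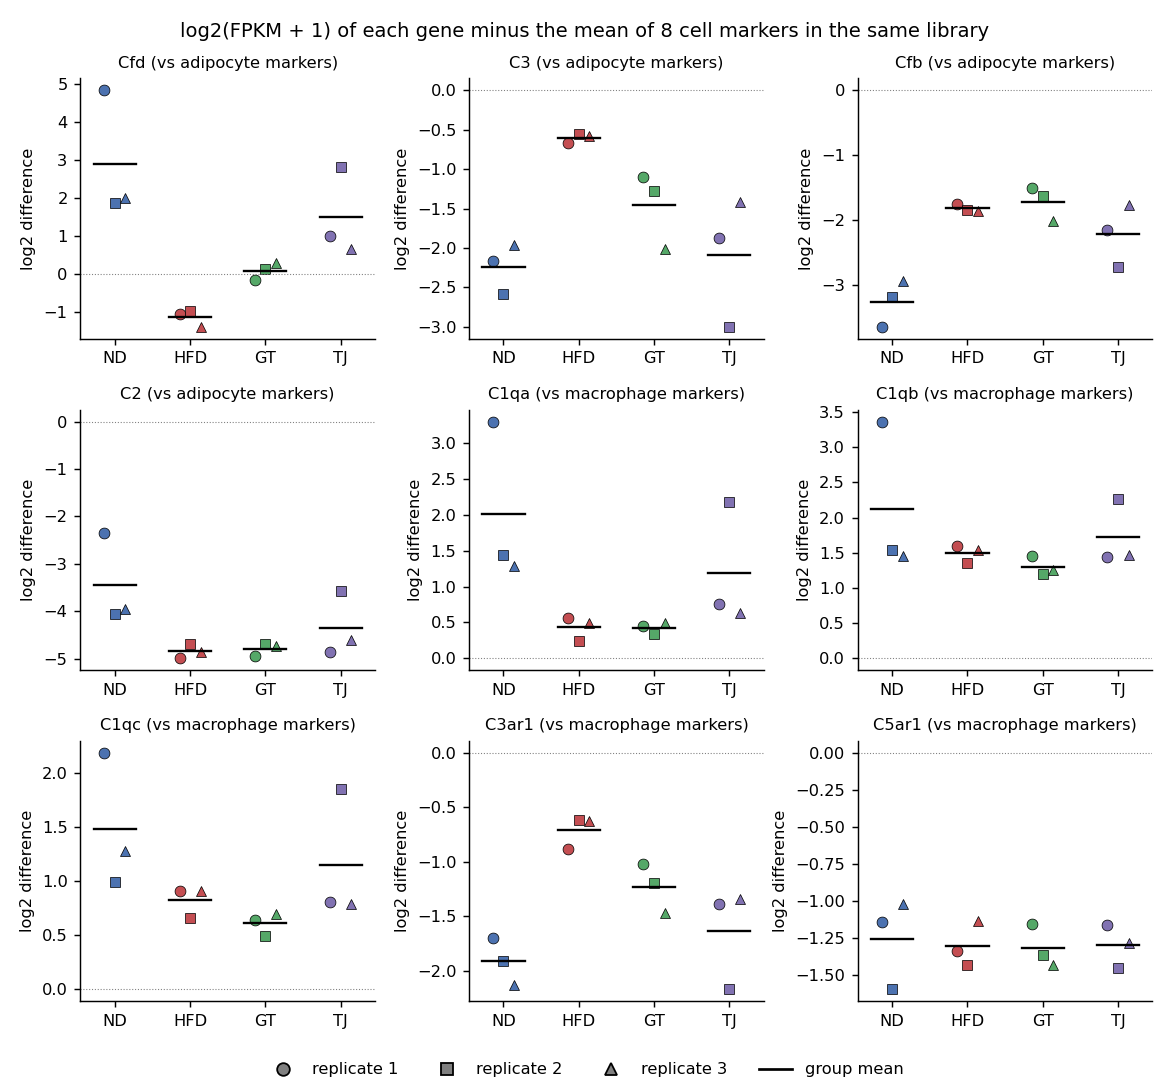
Difference between log2(FPKM + 1) of each gene and the mean of 8 adipocyte markers (Cfd, C3, Cfb, C2) or 8 macrophage markers (C1qa, C1qb, C1qc, C3ar1, C5ar1) in the same library, by diet group, with a symbol per replicate number and a line at the group mean. C5ar1 stays near -1.3 in every group, whereas C3ar1 is highest and Cfd lowest in the HFD group.

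The 9 genes moved in both directions. Between the HFD and ND groups, 5 of 9 were DEGs, 4 higher and 1 lower, where 1.77% of the 14430 tested genes were called, 1.73% higher and 0.0416% lower. Without ND replicate 1, all 9 were called, 7 higher and 2 lower, where 15.4% of all genes were, 11% higher and 4.34% lower. With the replicate number as a block, 0 of the 9 were called in limma (7 at an unadjusted p under 0.05), and 0 of all genes were. The same holds for the 9 genes when any 1 of the other 5 libraries was left out (6 or 7 at an unadjusted p under 0.05), where 0 to 24 of all tested genes were called. Of 12 alternatives, the call held in 6 for C1qb, 5 for C3ar1, 4 each for Cfd and C1qc and 2 for C1qa. The ND and HFD groups did not overlap in 8 genes, where 26.4% of all genes did not, and C2 was the exception. Without ND replicate 1 they did not overlap in any of the 9, against 47.2% of all genes.

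Between the TJ and HFD groups, 5 of 9 genes were DEGs, with Cfd higher and C1qa, C1qb, C1qc and C3ar1 lower, where 18.5% of the 12807 tested genes were called, 7.41% higher and 11.1% lower. The groups did not overlap in 8 of the 9, against 51.5% of all genes, and Cfb was the exception. In limma 0 of the 9 and 0 of all genes were called when any 1 of the HFD libraries or TJ replicate 1 was left out (7 of the 9 at an unadjusted p under 0.05 in each), 0 of the 9 with all 12 libraries in a single fit and 0 of the 9 without the filter (7 at an unadjusted p under 0.05 in each). Of all tested genes, 0 were called in the single fit of all 12 libraries and 382 of 20343 without the filter. Without TJ replicate 2, 7 of the 9 were called, with C2 and C5ar1 added, where 2023 of 12869 tested genes were called. Of 12 alternatives, the call held in 6 each for Cfd, C1qb, C1qc and C3ar1 and in 3 for C1qa.

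Between the GT and HFD groups, 2 of 9 genes were DEGs, Cfd and Cfb, both higher, where 3.63% of the 12766 tested genes were called, 1.83% higher and 1.81% lower. The groups did not overlap in 6 of the 9, against 36.7% of all genes. In limma 6 of the 9 were called without GT replicate 1, with C2 higher and C1qb, C1qc and C3ar1 lower added to both, where 1107 of 12834 tested genes were. It was 1, Cfb, without HFD replicate 1 and 0 without any 1 of the other 4 libraries, where 5 to 8 of the 9 had an unadjusted p under 0.05. Of all tested genes, 66 of 12374 were called without HFD replicate 1 and 4 to 7 without any 1 of the other 4 libraries. The TJ and GT groups differed in 0 of the 9 genes in limma (1, Cfb, at an unadjusted p under 0.05), where 0.148% of the 12187 tested genes were called, 0.139% higher and 0.00821% lower. They did not overlap in 2 genes, Cfd and Cfb, against 34.4% of all genes, and a p-value that misses the threshold does not show that the extracts act alike.

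**Figure D4:**
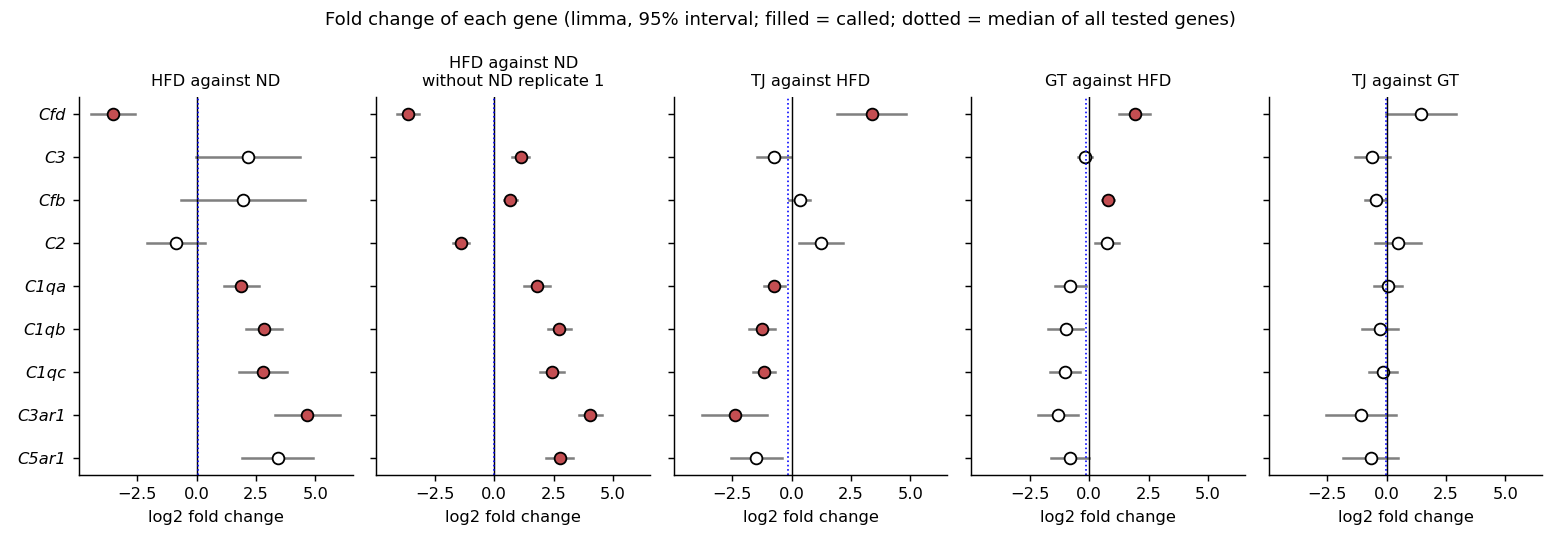
Log2 fold change of each gene in limma with its 95% interval, for HFD against ND with and without ND replicate 1, TJ against HFD, GT against HFD and TJ against GT. Filled circles are DEGs and the dotted line is the median of all tested genes. Cfd moves against C1qa, C1qb, C1qc and C3ar1 in the comparisons with the HFD group, and no gene is called between TJ and GT.

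The order of the group means separated the genes into patterns. Cfd and C2 ran from HFD through GT and ND to TJ, and in both the ND and TJ groups overlapped (exact permutation p = 1.0 for Cfd and 0.8 for C2). Without ND replicate 1 the ND mean of C2 was 62.6 FPKM against 62.3 in the TJ group, so these groups changed places, while the order of the other 8 genes stayed. The place of TJ at the top rested on TJ replicate 2, without which the TJ mean of Cfd was 1880 FPKM, below the ND mean, and that of C2 was 38.7 FPKM, below the GT and ND means. C3, C1qb, C1qc, C3ar1 and C5ar1 ran from ND through TJ and GT to HFD, and the TJ and GT groups overlapped in all of these. C1qa had GT and TJ in the reverse order with almost equal means of 127 and 129 FPKM, an order that turned when TJ replicate 1, TJ replicate 2 or GT replicate 3 was left out. That of C1qc turned without GT replicate 1, and ND fell below GT for C2 without ND replicate 2. Cfb alone ran from ND through HFD and TJ to GT, and its HFD and TJ groups overlapped (exact permutation p = 0.2).

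Of 40 other complement genes in the table, 27 were tested between the TJ and HFD groups and 8 were DEGs, 1 higher and 7 lower, where 18.5% of all tested genes were called, with a list median log2 fold change of -0.19 against -0.14 for all tested genes. Of the 6 DEGs with the largest changes, 5 are described here, in receptors, a regulator and a terminal component, all lower in the TJ group. Itgb2, which was not called, had a change of similar size (log2 fold change -2.24, limma adjusted p = 0.0562), and without TJ replicate 2 it was called at -1.37. Itgax had a log2 fold change of -2.41 and Itgam of -2.33 (limma adjusted p = 0.0414 and 0.0379). They encode the alpha chains of the integrin receptors for cleaved C3. Without TJ replicate 2 the values were -1.62 and -1.60, both called. Itgax stood at 102, 77.8 and 127 FPKM in the HFD group, 56.6, 48.0 and 22.6 in GT and 36.1, 5.41 and 28.03 in TJ. The GT group lay below the HFD group for Itgax and the TJ group overlapped with the GT group. C5ar2, the other C5a receptor, had a log2 fold change of -1.24, C7, a component of the membrane attack complex, of -1.15, and Cfi, which encodes the protease factor I, of -1.11 (limma adjusted p = 0.0434, 0.0276 and 0.043). These values became -0.86, -1.08 and -0.94 without TJ replicate 2, where Cfi was no longer called. Cfi and another of the 8 DEGs, Vsig4, averaged 0.33 and 0.70 FPKM in the TJ group and 1.80 and 2.42 FPKM in the HFD group. They thus passed the filter on low values only through the HFD group, where they were high, and their calls are given as a description. Macrophage markers fell alongside Itgax and Itgam, 7 of 8 of them being lower in the TJ group without overlap. Of 5 markers of fibroblasts and progenitors, 4 were also lower there without overlap, and their sum was 808 to 843 FPKM in the TJ group against 1077 to 1134 FPKM in the HFD group. The part of either list in these results was not tested. In limma 0 genes of the list were called when any 1 of the HFD libraries or TJ replicate 1 was left out (9 to 14 at an unadjusted p under 0.05), 0 with all 12 libraries in a single fit (6 at an unadjusted p under 0.05), and 12 without TJ replicate 3. Of all tested genes, 3412 of 12873 were called without TJ replicate 3 and 0 in each of the other fits named.

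In the GT group against the HFD group, 27 genes of the list were tested and 2 were DEGs, where 3.63% of all tested genes were called. One of them, C6, another component of the membrane attack complex, was higher (log2 fold change 0.80, standard error 0.13, limma adjusted p = 0.0379). C6 stood at 12.4, 15.4 and 13.2 FPKM in the HFD group and at 20.7, 26.1 and 26.8 in the GT group. The list median was -0.15 against -0.12 for all tested genes. In limma 0 of these genes were called without any 1 of HFD replicates 2 and 3 and GT replicates 2 and 3 (7 to 10 at an unadjusted p under 0.05), 1 without HFD replicate 1 and 5 without GT replicate 1. The calls among all tested genes were 4 to 7 in the first of these fits, 66 without HFD replicate 1 and 1107 without GT replicate 1. Between the HFD and ND groups, 28 were tested and 3 were DEGs, where 1.77% of all tested genes were called. They were all receptors and all higher, with log2 fold changes of 5.33 for Itgax, 5.01 for Itgb2, the beta chain shared by these integrins, and 2.01 for C5ar2 (limma adjusted p = 0.0208, 0.0475 and 0.0447). Without ND replicate 1, 9 were called, where 15.4% of all genes were, and the values were 4.77, 4.08 and 1.93 for the same receptors. C5ar2 averaged 0.60 FPKM in the ND group and 5.46 FPKM in the HFD group. It thus passed the filter on low values only through the HFD group, where it was high, and its call is given as a description. With the replicate number as a block 0 were called (7 at an unadjusted p under 0.05). In limma 0 of 23 genes differed between the TJ and GT groups (9 at an unadjusted p under 0.05). C4a and C4b are near-identical copies whose FPKM may be split, Cd59a and Cd59b are related copies, and none of these genes was a DEG with the settings used throughout. Between GT and HFD, C4b (0.57, limma adjusted p = 0.0482) and Cd59a (0.54, limma adjusted p = 0.0379) were below the 1.5-fold limit on the log2 scale, and both were called with median-of-ratios scaling. C4b was also called there without GT replicate 1. Between TJ and HFD, C4a was called with quantile normalization and Cd59b without TJ replicate 3.

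**Figure D5:**
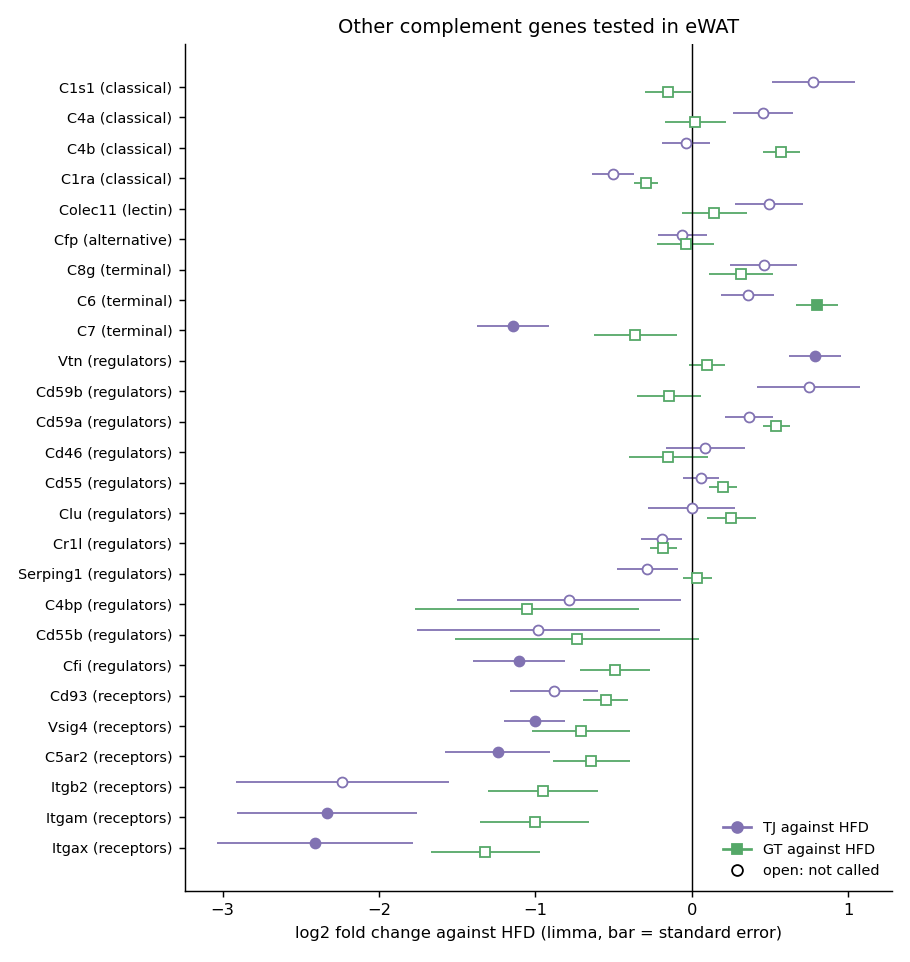
Log2 fold change against the HFD group (limma, bars are the standard error) of the other complement genes tested, with TJ as circles and GT as squares, filled where the gene was a DEG. Itgax has the lowest value in both groups, and 1 tested gene is left out of the plot.

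The genes whose profile over the 12 libraries was most like each of 4 members were found by the smallest root mean square difference of centred log2(FPKM + 1) values among 13831 genes. For Cfd they were Agt, which encodes angiotensinogen (0.62), Orm3, an orosomucoid (0.70), and Dpm1 (0.71), where a gene with no change would have 1.54. Agt had 8.31 to 15.4 FPKM in the HFD group, 22.9 to 62.3 in GT, 37.1 to 88.4 in TJ and 101 to 121 in ND. For C3 they were Plxnd1 (0.15), Col5a1 (0.17) and Tpp1 (0.17), where a gene with no change would have 1.16. For C1qb they were Milr1 (0.17), Tnfaip8l2 (0.19) and Fcgr1, which encodes a receptor of immunoglobulin G on macrophages (0.22), against 1.07 for no change. For C5ar1 they included Fblim1 (0.14) and Pik3r5 (0.16), against 1.43. Thus the nearest gene to Cfd was farther from it than the nearest genes of the other 3 were from theirs. The libraries share the groups and the depth behind these values, and no test was made. The 12 libraries include ND replicate 1, where C3, Plxnd1, Col5a1 and Tpp1 all had their lowest value (22.9, 1.65, 2.29 and 4.34 FPKM). The part of that library in the distances was not tested.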

How the data were processed

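Per the labels and the methods, mRNA libraries of eWAT (TruSeq) were sequenced in pairs on an Illumina instrument. Per the file headers and the methods, the authors deposited FPKM values from Cufflinks 2.1.1 after mapping with STAR, with noncoding gene regions masked and multireads and fragment bias corrected. CASAVA 1.8.2 and STAR 2.4.0 stand in the submitters' processing notes. The methods give another STAR version, and name a human reference genome, whereas all identifiers in the table are mouse. The study tested counts with TCC, which were not used here, so limma on log2(FPKM + 1) took the place of that test. FPKM gives no counting error, so no interval for depth was made. Paired reads counted without molecular identifiers are not independent molecules.

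Annotation (symbols, GRCm38 positions, transcript lengths) was that of GENCODE mouse release 21 (22671 identifiers with a symbol, 803 without), and promoters from RefSeq. The fits used limma 3.58.1 in R 4.3.3 (eBayes with trend) on the 6 libraries of the compared groups, for genes averaging at least 1 FPKM, and were tested on simulated data. Exact two-sided permutation tests used scipy 1.17.1. The named genes were the 9 members, the DEGs of the complement list or, above 6, the 6 with the largest change, and the 3 genes most like 4 members. The values of 2 genes that this rule covers are not reported here. The members and the lists were chosen with earlier results of these data known. Alternatives were each library left out, no filter, a pseudocount of 0.1, a replicate block, a single fit of all 12 libraries, quantile normalization and median-of-ratios scaling. The limma p-values set group differences against the spread between these libraries, and the permutation p-values rank them among relabellings of the libraries. No more than these libraries is covered by either, and 0 pairs of libraries held identical values. Whether replicate numbers pair libraries was checked by the correlation of deviations from the group means over genes. For HFD and ND it was 0.547, 0.342 and 0.122 for numbers 1 to 3, all over 0.1, so the blocked values stand beside that comparison, although no source names anything that a number shares and HFD replicate 3 with ND replicate 2 gave 0.626. The other comparisons had at least 1 pair at 0.1 or below.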

Additional observations from a re-analysis of the deposited data

How the results depend on the processing

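Of the 9 genes, 5 were called between the HFD and ND groups. This was 2 with a pseudocount of 0.1, 3 without the filter, 3 with quantile normalization, 0 with the replicate block, and 0 to 9 over the single libraries left out. Between TJ and HFD, 5 became 0 without the filter and 0 with all 12 libraries, and 0 to 7 over the libraries left out. Between GT and HFD, 2 became 0 without the filter, 0 with all 12 libraries and 0 with the replicate block, and 0 to 6 over the libraries left out. The replicate block left the TJ against HFD count at 5, with C5ar1 called in place of C1qa. Of the other complement genes, the 3 called between HFD and ND became 0 with a pseudocount of 0.1, 1 without the filter, 5 with all 12 libraries, 0 with the replicate block and 0 to 9 over the libraries left out. The 8 between TJ and HFD became 3 without the filter, 0 with all 12 libraries and 0 to 12. The 2 between GT and HFD became 0 without the filter, 4 with median-of-ratios scaling, 0 with all 12 libraries, 0 with the replicate block and 0 to 5. Where a count against HFD or ND was 0, 4 to 8 of the 9 genes and 0 to 14 of the other complement genes had an unadjusted p under 0.05 in limma, the lowest with all 12 libraries for GT against HFD. Between TJ and GT, 0 of the 9 were called under every alternative, with 0 to 3 at an unadjusted p under 0.05. Over the alternatives the calls among all tested genes ran from 0 to 2098 for HFD against ND and from 0 to 3412 for TJ against HFD. They ran from 1 to 1107 for GT against HFD and from 2 to 81 for TJ against GT. The causes were not tested, and leaving out a library also leaves fewer samples. The counts of the 9 genes without overlap relative to the markers ran from 3 to 6 for GT against HFD and from 3 to 6 for TJ against GT.

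Log2 fold changes of the 9 genes kept their direction in every comparison with HFD under these alternatives. Between TJ and GT, C1qa was 0.07 and became -0.094 with quantile normalization, and over the libraries left out C1qa ran from -0.21 to 0.29, C2 from -0.016 to 0.78, C1qb from -0.61 to 0.0072 and C1qc from -0.43 to 0.066. Relative to the markers, several values changed sign. With a pseudocount of 0.1, C5ar1 was 0.060 for HFD against ND and -0.023 for TJ against HFD. Over the libraries left out, C1qb ran from -0.96 to 0.0016 and C5ar1 from -0.22 to 0.069 for HFD against ND. For TJ against HFD, C1qb ran from -0.040 to 0.37, C1qc from -0.028 to 0.51 and C5ar1 from -0.068 to 0.084. For GT against HFD, Cfb ran from -0.0021 to 0.25, C2 from -0.011 to 0.14, C1qa from -0.099 to 0.063 and C5ar1 from -0.095 to 0.067. For TJ against GT, C5ar1 ran from -0.053 to 0.097.

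Over all tested genes the median was -0.14 on the log2 scale for TJ against HFD and moved to -0.01 with median-of-ratios scaling and 0.03 with quantile normalization, with 40.1%, 54.2% and 57.3% of the DEGs higher. For GT against HFD it was -0.12, -0.01 and 0.03, with 50.2%, 73.4% and 71.4%. The DEGs between HFD and ND numbered 255 of all genes and 2098 without ND replicate 1. Depths were approximate, so the counting error of low FPKM values is unknown.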
